A study of Arabidopsis thaliana with 20 samples.

Results

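The WRKY genes are one of the large families of plant transcription factors. The members were taken by their Arabidopsis gene identifiers, and all 60 were found among the 37336 genes of the count table. RNA-seq was performed on leaves of 6-week-old Arabidopsis thaliana Col-0 plants in 4 groups of 5 samples. The leaves were left non-infiltrated, infiltrated with Water, infiltrated with single-walled carbon nanotubes (SWNTs) that carried a single-stranded RNA against GFP, or infiltrated with SWNTs coated with the cationic polymer polyethylenimine (PEI-SWNTs) that carried a GFP plasmid. Both nanotube suspensions were given at 50 ng/µL, the infiltrated volume was 40 µL, and leaves were collected 2 days later, 4 leaves from different plants to a sample. GFP is a jellyfish fluorescent protein with no counterpart in this plant. The 2 nanotube groups differ in surface and in cargo, so the parts of coating and cargo cannot be told apart.

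A WRKY protein binds DNA through a domain of conserved residues, the WRKYGQK signature, followed by a zinc finger. Its usual site is the W-box, and many WRKY genes hold W-boxes in their own promoters. In leaves the family is best known for immunity. MAP kinase cascades that act below immune receptors phosphorylate or induce several members, other members act with salicylic acid, and a further set has been tied to senescence, phosphate supply or epidermal development. Group I proteins carry a pair of WRKY domains, group II proteins carry one and are split into IIa to IIe, and group III proteins have a zinc finger that ends in cysteine in place of histidine.

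The reference gene models show which members depart from the common signature. All 60 coding sequences held the signature, 71 copies in all, with 2 copies in 11 members. These were the members of group I, except WRKY19, in which 1 copy was found. The sixth codon, printed in capitals below within the 21 bases that run from the tryptophan to the last lysine, coded for glutamine in 68 copies and for lysine in 3. The lysine copies belong to WRKY50, WRKY51 and WRKY59 of group IIc, and they are shown because WRKY50 and WRKY51 were called with PEI-SWNTs in the values further on, whereas WRKY59 stayed near the floor of detection. WRKY54, WRKY66 and WRKY70 of group III share the same 21 bases, and the trio of group IIa is given for comparison.
WRKY50: tggagaaagtatgggAAGaag
WRKY51: tggaggaagtatggcAAGaaa
WRKY59: tggaggaaatacggaAAGaag
WRKY70: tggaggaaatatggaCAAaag
WRKY54: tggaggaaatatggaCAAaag
WRKY18: tggaggaaatacggaCAAaag
WRKY40: tggaggaaatatggaCAGaaa
WRKY60: tggaggaaatacgggCAAaag
The sequences are from the TAIR10.1 genome of RefSeq, 5′ to 3′ on the coding strand. The copy of WRKY50 lies at chr5:9147579-9147599 on the minus strand, that of WRKY51 at chr5:25908864-25908884 on the plus strand and that of WRKY70 at chr3:20909760-20909780 on the minus strand, each within a coding exon. A zinc finger ending in cysteine was found in 10 members, which were the 10 members of group III.

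Total counts per sample ran from 13387714 in a PEI-SWNTs sample to 29737496 in a non-infiltrated one. The leaf genes RBCS1A and CAB1 were at 5242 CPM or more in every sample (CPM, counts scaled to library size and composition), CA1, a further mesophyll gene, ran from 30.2 to 139 CPM, the phloem gene SUC2 from 93.2 to 159 CPM, the root genes CASP1 and TIP2;3 had 0 counts in all 20 samples, and the flower genes AG and AP3 stayed below 0.9 CPM. The guard cell gene KAT1 ran from 19.9 to 29.4 CPM in non-infiltrated leaves and from 6.21 to 19 CPM in infiltrated ones. MYB60, the other guard cell gene, overlapped between them, at 8.05 to 10.6 CPM against 5.55 to 8.69 CPM, and the trichome gene GL2 ran from 2.66 to 6.58 CPM against 0.648 to 2.31 CPM. The part of these cell types in the results below was not tested. In bulk tissue, fewer cells of a type and less RNA per cell cannot be told apart. The replicates are separate leaf pools, and the p-values measure the spread between them.

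A gene was tested where its average RPKM (counts scaled to library size and exon length) over all 20 samples was at least 1. This held for 40 members, and 20 fell below it. Of the 40, 38 also had a mean of at least 1 RPKM in non-infiltrated leaves. WRKY51 and WRKY61 were below 1 RPKM there and passed because of the PEI-SWNTs samples, so that their difference was in part set by the filter. Without both, 18 of 38 members were up-regulated with PEI-SWNTs, 12 with SWNTs and 8 with Water in the comparisons given below. WRKY42 and WRKY23 had means of 1.36 and 1.11 RPKM in non-infiltrated leaves but averaged less than 1 RPKM over all 20 samples. They were not tested, so the filter also left out members that were lower after infiltration. WRKY15, a member of group IId tied to growth and oxidative stress, had the highest level in non-infiltrated leaves at a mean of 40.6 RPKM (n = 5). It was followed by WRKY11 at 32.3 RPKM, a negative regulator of basal resistance, WRKY1 at 20.5 RPKM, and WRKY33 at 19.4 RPKM, the regulator of camalexin synthesis downstream of MPK3 and MPK6. WRKY70, which acts with salicylic acid, came next at 18.1 RPKM. In all, 9 members reached 10 RPKM in non-infiltrated leaves and 23 did so in PEI-SWNTs leaves. WRKY70 was then highest at a mean of 164 RPKM, ahead of WRKY15 at 79.1 RPKM.

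**Figure D1:**
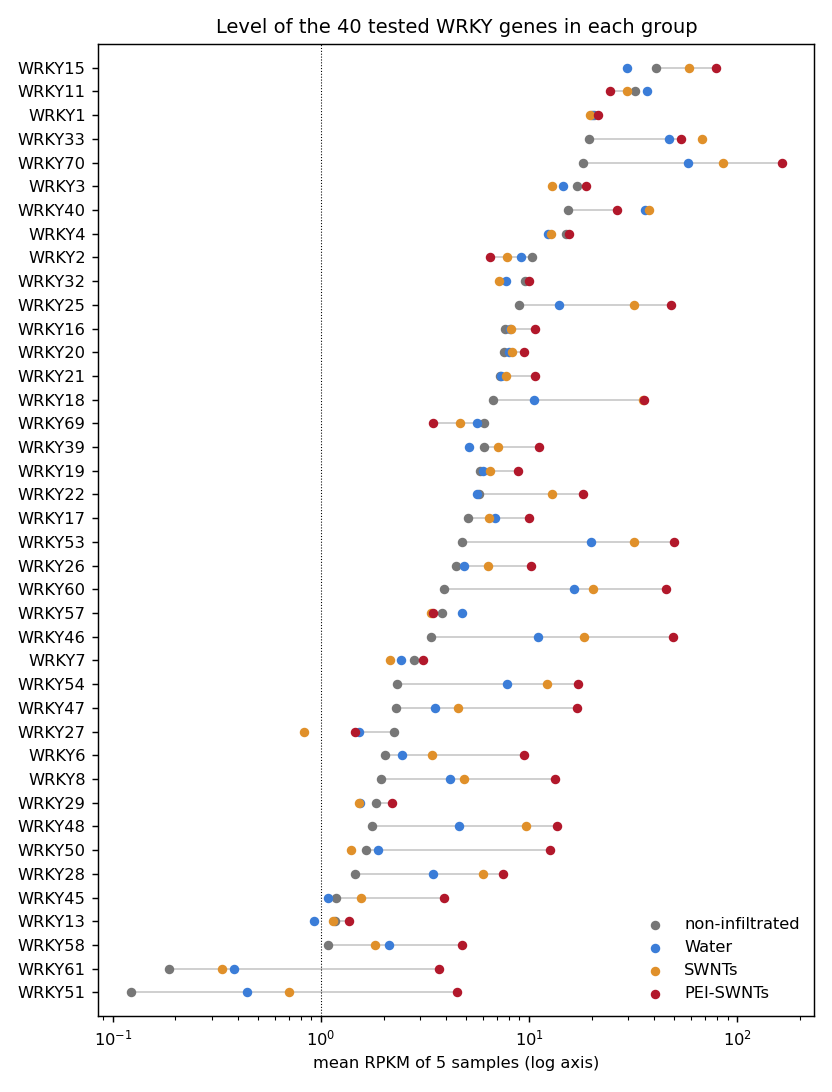
Mean RPKM (log axis, n = 5) of the 40 tested WRKY genes in each group, ordered by the level in non-infiltrated leaves; grey lines join the non-infiltrated and PEI-SWNTs means and the dotted line marks 1 RPKM. WRKY70 moves from 18.1 to 164 RPKM, while WRKY1 stays between 19.7 and 21.5 RPKM in the 4 groups.

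Against non-infiltrated leaves, the members called among the 40 tested were almost wholly up-regulated. WRKY42 and WRKY23, which fell, lie outside this set and are given further on. A member was called at an adjusted p under 0.05 and a change of at least 2-fold. Water infiltration up-regulated 9 of the 40 tested members and down-regulated 0, where 2.61% of all 16288 tested genes were called up and 1.90% down. With SWNTs 13 members were up-regulated and 1 was down-regulated, against 4.82% and 2.09% of all genes. With PEI-SWNTs 20 were up-regulated and 0 down-regulated, against 8.47% and 6.29% of all genes. The median log2 fold change of the tested members was 0.20 with Water, 0.45 with SWNTs and 1.08 with PEI-SWNTs, where the medians over all genes were 0.00, -0.01 and -0.02. Without WRKY51 and WRKY61 the medians of the members were 0.17, 0.36 and 0.96. At any fold, 12 members passed upwards and 4 downwards with Water (16.4% of all genes each way), 17 and 5 with SWNTs (21.6% and 20.3%), and 27 and 2 with PEI-SWNTs (30.4% and 31.2%). The 3 comparisons share the non-infiltrated samples. Where no member was called down, edgeR gave an unadjusted p under 0.05 to 4 falling members with Water and 2 with PEI-SWNTs, and DESeq2 called 0 in both. A fit over all 25909 genes with at least 1 count, which includes all 60 members and does not depend on the RPKM filter, called 13, 17 and 32 members up with Water, SWNTs and PEI-SWNTs (2.41%, 3.92% and 7.72% of those genes) and 1, 2 and 0 down (2.59%, 2.69% and 7.44%). The 32 include WRKY14, WRKY31, WRKY35 and WRKY59, which did not meet the detection rule given below. WRKY41, WRKY55, WRKY62, WRKY71 and WRKY75 met that rule through the PEI-SWNTs samples alone. The higher number thus rests in part on genes near the floor and is a description.

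**Figure D2:**
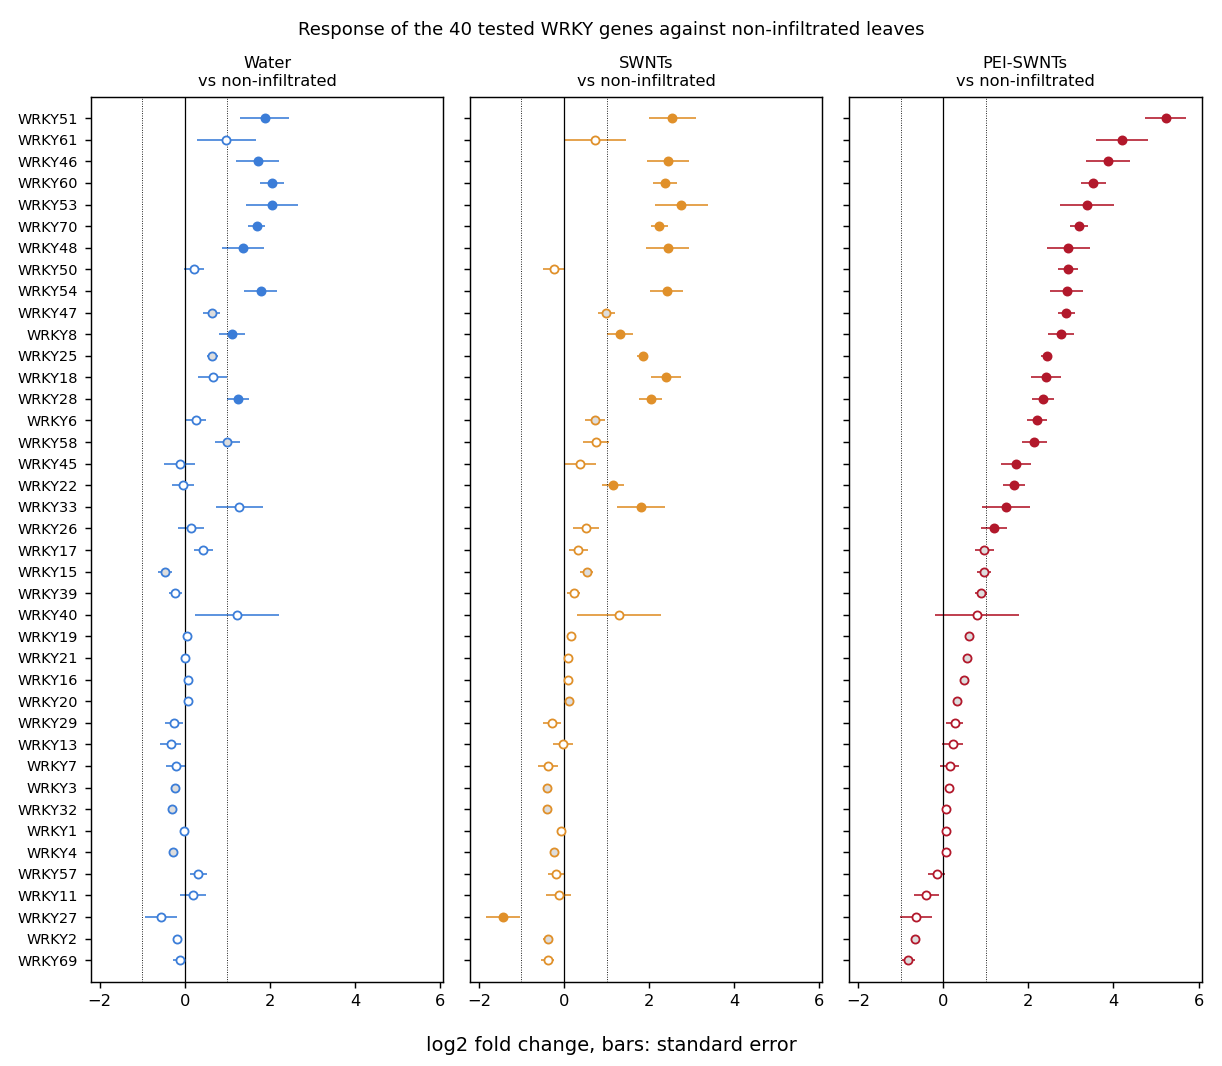
Log2 fold change against non-infiltrated leaves (bars, standard error) of the 40 tested WRKY genes in Water, SWNTs and PEI-SWNTs leaves, in the order of the PEI-SWNTs value. Filled points were called (20 up with PEI-SWNTs), grey points passed the adjusted p but not 2-fold, open points did not pass, and dotted lines mark a 2-fold change; WRKY50 lies at 0.21, -0.24 and 2.93 in the 3 panels.

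The group III genes include several that act in salicylic acid responses and leaf senescence. WRKY46, WRKY53, WRKY54 and WRKY70 were the 4 of its 10 members that passed the RPKM filter, and all 4 were up-regulated in each infiltrated group. Their log2 fold changes lay between 1.69 and 2.06 with Water, 2.24 and 2.75 with SWNTs, and 2.90 and 3.86 with PEI-SWNTs. WRKY70 (AT3G56400) had 45, 23.6, 18.2, 25.3 and 20.9 CPM in the 5 non-infiltrated samples and 85, 74, 87.1, 92.2 and 88.9 CPM with Water. It had 162, 142, 121, 120.2 and 80.9 CPM with SWNTs and 252, 278, 259, 209 and 208 CPM with PEI-SWNTs. No infiltrated sample overlapped the non-infiltrated ones, the PEI-SWNTs samples stood above all others, and Water and SWNTs overlapped through a single low SWNTs sample. On the log2 scale WRKY70 differed from non-infiltrated leaves by 1.69 ± 0.20, adjusted p = 1.1e-05 with Water, 2.24 ± 0.20, adjusted p = 2.1e-07 with SWNTs and 3.18 ± 0.21, adjusted p = 2.6e-10 with PEI-SWNTs (± is the standard error here and below). PEI-SWNTs exceeded Water by 1.5 ± 0.20, adjusted p = 3.9e-06, and SWNTs exceeded Water by 0.55 ± 0.20, adjusted p = 0.066, which did not pass.

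WRKY54 (AT2G40750), the closest relative of WRKY70, had 7.97, 1.69, 0.449, 3.81 and 2.65 CPM in non-infiltrated leaves and 23.8, 26.7, 25.7, 20.9 and 25.6 CPM with PEI-SWNTs, with no overlap (log2 2.90 ± 0.39, adjusted p = 3.1e-06). Without non-infiltrated replicate 1 the value of WRKY54 went from 1.78 to 2.41 with Water, from 2.41 to 3.02 with SWNTs and from 2.90 to 3.49 with PEI-SWNTs. WRKY53 (AT4G23810), a regulator of senescence, had 4.98, 10.3, 15.4, 2.69 and 2.48 CPM in non-infiltrated leaves. Its Water samples spread from 7.23 to 80.6 CPM, where replicate 4 stood far above the rest. The log2 value of WRKY53 with Water was 2.06 ± 0.61, and without Water replicate 4 it was 1.26 and no longer passed (adjusted p = 0.089 by edgeR). WRKY46 (AT2G46400), which acts in basal defence with WRKY53 and WRKY70, behaved likewise with Water (1.71 ± 0.50, and 1.13 with adjusted p = 0.068 by edgeR without Water replicate 4). With PEI-SWNTs its samples ran from 34.2 to 105 CPM, all above the non-infiltrated range of 1.22 to 9.46 CPM (log2 3.86 ± 0.51, adjusted p = 2.6e-06). WRKY53 shares 20.5% of its exon bases with AT4G23800 on the opposite strand, and reads of the 2 genes cannot be told apart since the strand setting of the counting is not stated. AT4G23800 was counted at means between 0.760 and 1.09 CPM in the 4 groups.

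Group IIa showed a split among its 3 members, whose proteins bind each other and modulate basal defence. WRKY60 (AT2G25000) was up-regulated in each infiltrated group and highest with PEI-SWNTs, where it had 85.2, 72.7, 83, 60.4 and 58 CPM against 6.18, 4.34, 12.2, 2.11 and 6.24 CPM in non-infiltrated leaves (log2 3.52 ± 0.29, adjusted p = 4.4e-09). WRKY18 (AT4G31800) followed the nanotubes instead. It had 8.01, 22, 21.3, 9.1 and 7.6 CPM in non-infiltrated leaves, 18.5, 14.7, 24.1, 35.1 and 14.8 CPM with Water, 107, 76.7, 59.4, 60.5 and 55.2 CPM with SWNTs and 74.6, 85.8, 50.3, 40.8 and 109 CPM with PEI-SWNTs. Both nanotube groups lay above both others without overlap. SWNTs exceeded Water by 1.75 ± 0.34, adjusted p = 0.0022, and PEI-SWNTs and SWNTs differed by 0.01 ± 0.33, adjusted p = 0.99. WRKY40 (AT1G80840) passed in no comparison. Its non-infiltrated samples had 1.58, 55.6, 41.7, 2.52 and 0.712 CPM, and its Water samples 15.8, 36.2, 40.8, 144 and 2.02 CPM. That spread within groups, from 0.712 to 55.6 CPM before any infiltration, gave standard errors of 0.97 to 0.99 on log2 fold changes between -0.50 and 1.30, so a change of 2-fold was not detectable for WRKY40.

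**Figure D3:**
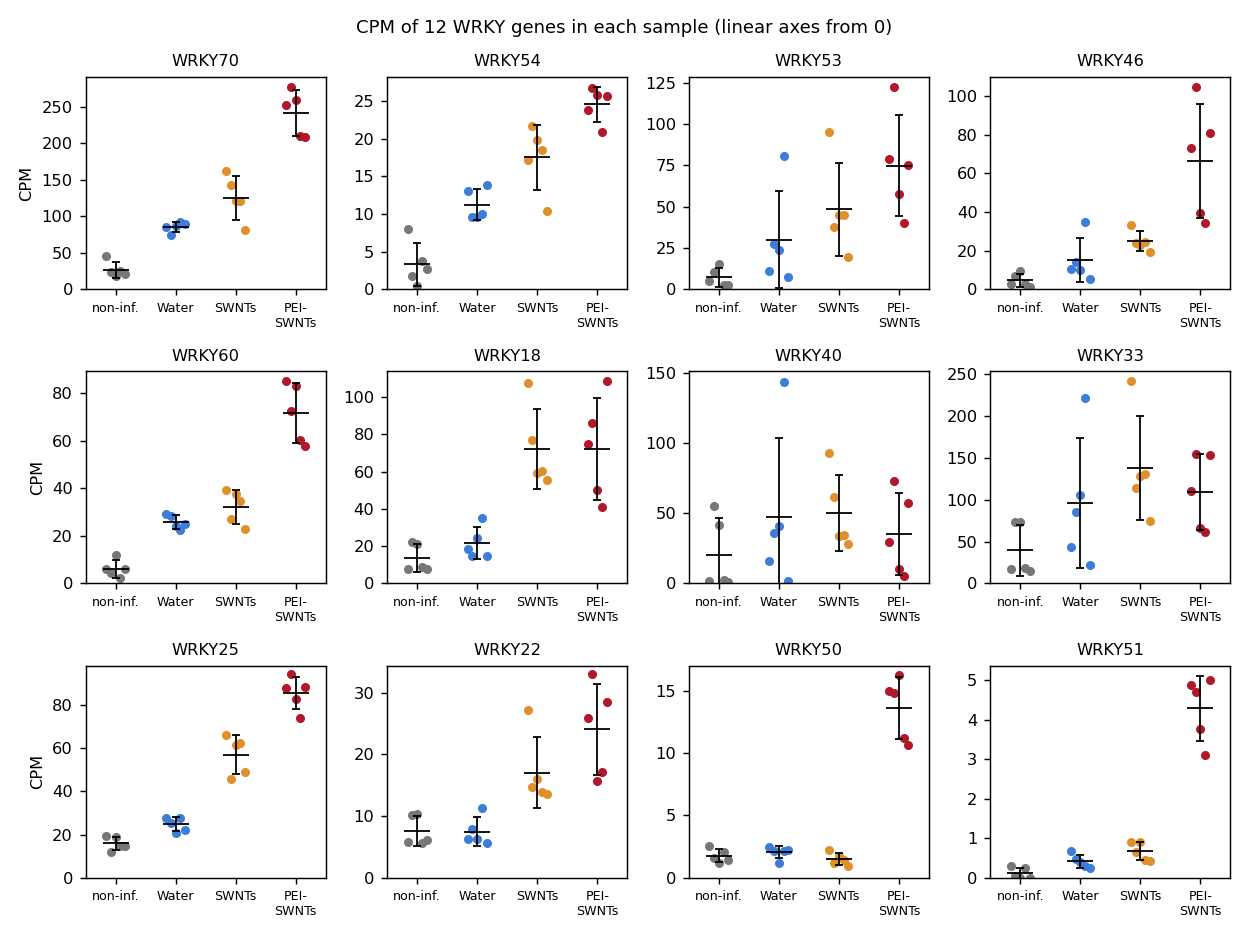
CPM of 12 WRKY genes in each of the 20 samples (points), with the mean and SD of each group of 5; SD bars that would pass below 0 stop at the axis. WRKY50 and WRKY51 are high in the 5 PEI-SWNTs samples alone, WRKY18 and WRKY22 in both nanotube groups, and WRKY40 spreads from 0.712 to 144 CPM within non-infiltrated and Water leaves.

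Among the 11 tested members of group I, 4 were up-regulated with PEI-SWNTs (WRKY25, WRKY26, WRKY33 and WRKY58), 2 with SWNTs (WRKY25 and WRKY33) and 0 with Water. WRKY25 (AT2G30250), a relative of WRKY33 known from heat responses, was one of these. It had 19.5, 12.1, 18.7, 14.5 and 14.5 CPM in non-infiltrated leaves, 27.7, 25.3, 20.6, 27.8 and 22.1 CPM with Water, 66.2, 45.9, 61.4, 62.5 and 49 CPM with SWNTs and 87.9, 94.2, 83, 74.1 and 88.2 CPM with PEI-SWNTs. The 4 groups did not overlap at all. Each step passed for WRKY25, with log2 0.64 ± 0.13, adjusted p = 0.0012 from non-infiltrated to Water, 1.20 ± 0.13, adjusted p = 1.5e-05 from Water to SWNTs and 0.59 ± 0.13, adjusted p = 0.0011 from SWNTs to PEI-SWNTs, though the first and last were below 2-fold. WRKY33 (AT2G38470) had 17.8, 73.2, 73.2, 18.2 and 14.6 CPM in non-infiltrated leaves and 242, 114, 128, 130.4 and 74.3 CPM with SWNTs (log2 1.80 ± 0.56, adjusted p = 0.014). With PEI-SWNTs it was at 109 ± 45.2 CPM (SD, n = 5), which overlapped the non-infiltrated samples (log2 1.47 ± 0.56, adjusted p = 0.028), and this call was lost in 5 of the fits that left out 1 sample, where the adjusted p from edgeR reached 0.072. WRKY26 and WRKY58 were called with PEI-SWNTs alone, at 1.20 ± 0.30 and 2.14 ± 0.29. The mean of WRKY58 was also higher with Water (4.02 CPM) and with SWNTs (3.44 CPM) than in non-infiltrated leaves (2.04 CPM), against 9.04 CPM with PEI-SWNTs. Without non-infiltrated replicate 4 WRKY26 came to 0.98, just under 2-fold.

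The rest of group I moved little. WRKY3, WRKY4 and WRKY32, which are expressed at a steady level, fell with Water and with SWNTs by less than 2-fold (log2 -0.24, -0.29 and -0.30 with Water, and -0.41, -0.24 and -0.41 with SWNTs). With PEI-SWNTs the same genes had 0.14, 0.06 and 0.07, none of which passed. Direct comparison of PEI-SWNTs with SWNTs passed for all 3, at 0.54 ± 0.08, 0.30 ± 0.08 and 0.48 ± 0.08. WRKY2, known for its part in the first division of the zygote, was lower with PEI-SWNTs in every sample (31.2 ± 3.51 CPM in non-infiltrated leaves and 19.7 ± 1.26 CPM with PEI-SWNTs, SD, n = 5; log2 -0.66 ± 0.10, adjusted p = 9.8e-06). Its SWNTs samples (22.4 to 25.5 CPM) also lay below all non-infiltrated ones (28.1 to 37 CPM), whereas its Water samples (22 to 35.3 CPM) overlapped them. WRKY19, whose protein also carries parts of an immune receptor, rose by 0.60 ± 0.07 with PEI-SWNTs and WRKY20 by 0.32 ± 0.05, while WRKY1 stayed within -0.06 and 0.07 and passed nowhere.

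In group IIc, 6 of the 8 tested members were up-regulated with PEI-SWNTs. WRKY50 and WRKY51, which repress jasmonate signalling when salicylic acid is high, are 2 of the lysine-signature members printed above. WRKY51 (AT5G64810) had 0.29, 0.0394, 0, 0.248 and 0 CPM in non-infiltrated leaves, 0.663, 0.483, 0.407, 0.294 and 0.252 CPM with Water and 0.900, 0.66, 0.904, 0.458 and 0.421 CPM with SWNTs. With PEI-SWNTs it had 4.88, 4.7, 3.75, 3.11 and 4.99 CPM, above every other sample (log2 5.22 ± 0.47, adjusted p = 1.5e-08). Its non-infiltrated counts were 0 to 7, so the fold is uncertain. Without non-infiltrated replicate 1 it went from 1.88 to 2.55 with Water, from 2.54 to 3.19 with SWNTs and from 5.22 to 5.86 with PEI-SWNTs. The difference of WRKY51 between PEI-SWNTs and SWNTs was 2.68 ± 0.38, adjusted p = 1.7e-05. WRKY50 (AT5G26170) had 2.57, 1.62, 1.2, 2.07 and 1.46 CPM in non-infiltrated leaves, 2.45, 2.15, 1.22, 2.11 and 2.27 CPM with Water and 2.25, 1.21, 1.75, 1.44 and 0.927 CPM with SWNTs, which overlapped throughout. With PEI-SWNTs it had 15, 14.9, 16.3, 11.2 and 10.7 CPM (log2 2.93 ± 0.23, adjusted p = 2.0e-09), and PEI-SWNTs exceeded SWNTs by 3.17 ± 0.24, adjusted p = 1.1e-08. WRKY59, the third member with the lysine codon, had 0 counts in the 5 non-infiltrated samples, 0 to 1 with Water, 0 to 3 with SWNTs and 3, 2, 6, 6 and 4 counts with PEI-SWNTs. These numbers are near 3 counts, taken as the floor here, and give no fold.

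WRKY28, an activator of the salicylic acid gene ICS1, rose with Water (1.25 ± 0.27), with SWNTs (2.03 ± 0.26) and with PEI-SWNTs (2.35 ± 0.26), and its SWNTs samples exceeded Water by 0.78 ± 0.25, adjusted p = 0.043, below 2-fold. WRKY8, known from virus resistance, and WRKY48, a repressor of basal defence, were also called in all 3 comparisons. The Water calls of both depended on which samples were used. WRKY8 came to 0.75 (log2), below 2-fold, without Water replicate 1. WRKY48 had 1.36 ± 0.50, adjusted p = 0.043 with Water and passed no longer in 8 of the fits that left out 1 sample, with an adjusted p from edgeR of up to 0.11, while leaving out non-infiltrated replicate 3 took its value to 2.07. The same omission took WRKY48 from 2.43 to 3.14 with SWNTs and from 2.93 to 3.64 with PEI-SWNTs. WRKY51 with Water (1.88 ± 0.58) missed the threshold without Water replicate 1 at an adjusted p of 0.057 by edgeR. WRKY45, which takes part in phosphate uptake, was called with PEI-SWNTs alone (1.72 ± 0.35, adjusted p = 3.0e-04). WRKY13 and WRKY57 passed in none of these comparisons.

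In group IIb, WRKY6, WRKY47 and WRKY61 passed the filter, and all 3 were called with PEI-SWNTs and with neither Water nor SWNTs. At any fold, 1 of the 3 passed upwards with Water and 2 with SWNTs (16.4% and 21.6% of all genes). WRKY6 (AT1G62300), a senescence-related gene that also represses the phosphate exporter PHO1, had 4.07, 3.94, 5.76, 4.72 and 5.19 CPM in non-infiltrated leaves and 18.9, 22.9, 20.4, 24.6 and 22.4 CPM with PEI-SWNTs. Its SWNTs samples had 15.3, 6.87, 7.17, 5.5 and 4.68 CPM, of which replicate 1 alone approached the PEI-SWNTs range. The log2 fold change of WRKY6 was 2.20 ± 0.23, adjusted p = 1.4e-07 with PEI-SWNTs against non-infiltrated leaves and 1.47 ± 0.23 against SWNTs. WRKY47 had 4.45 ± 1.04 CPM in non-infiltrated leaves and 33.1 ± 5.02 CPM with PEI-SWNTs (SD, n = 5), a log2 fold change of 2.89 ± 0.19, adjusted p = 2.9e-10. With SWNTs it passed the adjusted p at 0.99 ± 0.19, just under 2-fold. WRKY61 had 0.166, 0.0394, 0.224, 0 and 1.32 CPM in non-infiltrated leaves and 7.2, 6.31, 7.87, 7.34 and 6.12 CPM with PEI-SWNTs (log2 4.21 ± 0.61, adjusted p = 8.3e-06). Replicate 5 supplied most of the non-infiltrated counts, and without it the value was 5.92. WRKY61 shares 11.5% of its exon bases with AT1G05447 on the opposite strand, which had 0 counts.

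Group IId, whose proteins bind calmodulin, held 6 tested members and 0 of them were called against non-infiltrated leaves. WRKY15 fell with Water (-0.47 ± 0.16, adjusted p = 0.033) and rose with SWNTs (0.53 ± 0.16, adjusted p = 0.013) and with PEI-SWNTs (0.96 ± 0.16, adjusted p = 4.2e-05), each below 2-fold. Measured against Water, WRKY15 was higher by 1.00 ± 0.16, adjusted p = 5.2e-04 with SWNTs and by 1.43 ± 0.16, adjusted p = 7.3e-07 with PEI-SWNTs. WRKY39, WRKY21 and WRKY17 rose with PEI-SWNTs by 0.89 ± 0.15, 0.57 ± 0.10 and 0.97 ± 0.23. WRKY17 and WRKY11 act together as negative regulators of basal resistance, and WRKY11 did not pass, with 58.7 ± 24.5 CPM in non-infiltrated leaves and 44.7 ± 7.65 CPM with PEI-SWNTs (SD, n = 5). WRKY7 did not pass either (0.15 ± 0.23).

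Group IIe held members that moved in different directions. WRKY22 (AT4G01250), a target of the MAP kinase cascade below the flagellin receptor, had 5.77, 10.1, 10.4, 5.67 and 6.14 CPM in non-infiltrated leaves and 6.22, 7.83, 6.22, 11.3 and 5.61 CPM with Water. With SWNTs it had 27.2, 14.6, 16, 13.8 and 13.6 CPM and with PEI-SWNTs 25.9, 33, 15.7, 17.2 and 28.4 CPM. Water and non-infiltrated samples overlapped, and both nanotube groups lay above them. The log2 fold change of WRKY22 against Water was 1.20 ± 0.26, adjusted p = 0.0048 with SWNTs and 1.70 ± 0.26, adjusted p = 2.5e-05 with PEI-SWNTs. SWNTs replicate 1 was the highest sample of its group, and without it SWNTs exceeded Water by 0.96 and non-infiltrated leaves by 0.93, which passed but lay under 2-fold. WRKY29, which acts in the same cascade, did not pass against non-infiltrated leaves (0.27 ± 0.21 with PEI-SWNTs). WRKY27 (AT5G52830), known from bacterial wilt, was the one tested member called down. It had 5.48, 3.07, 5.39, 1.49 and 2.31 CPM in non-infiltrated leaves and 1.69, 0.44, 1.87, 1.51 and 1.1 CPM with SWNTs, which overlapped (log2 -1.44 ± 0.40, adjusted p = 0.0072), and 2.31 ± 0.77 CPM with PEI-SWNTs (SD, n = 5; log2 -0.63 ± 0.38, adjusted p = 0.16). WRKY69 fell by less than 2-fold with PEI-SWNTs (-0.82 ± 0.16, adjusted p = 1.6e-04). It shares 21.1% of its exon bases with genes on the opposite strand, of which AT3G58720 was at 17.9 ± 4.19 CPM in non-infiltrated leaves and 7.50 ± 1.16 CPM with PEI-SWNTs (SD, n = 5), and its part in the WRKY69 value was not tested. WRKY16, whose protein also carries immune receptor domains, rose by 0.48 ± 0.07 with PEI-SWNTs.

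The infiltrated groups were then compared with each other. SWNTs against Water called 3 of the 40 members up and 0 down (1.23% and 0.289% of all genes), namely WRKY18, WRKY22 and WRKY25. At any fold 5 members passed upwards and 0 downwards (7.52% and 6.14% of all genes), the others being WRKY15 and WRKY28. Of downward differences, 4 had an unadjusted p under 0.05 in edgeR, and DESeq2 called 0. PEI-SWNTs against Water called 20 up and 0 down (6.13% and 3.47% of all genes). Without WRKY51 and WRKY61, which passed the RPKM filter through the PEI-SWNTs samples, 18 of 38 were called up. At any fold 27 of the 40 passed upwards and 2 downwards (27.7% and 24.3% of all genes). The called members included WRKY15 and WRKY39, at 1.43 and 1.11, and did not include WRKY53 (1.33 ± 0.57, adjusted p = 0.06) or WRKY33 (0.20 ± 0.54, adjusted p = 0.79). Without Water replicate 4 WRKY39 came to 0.99. Leaving out Water replicate 2 took WRKY28 to 0.99, and leaving out Water replicate 3 took WRKY26 from 1.06 to 0.93, each just under 2-fold. The unadjusted p of edgeR was under 0.05 for 3 members lower with PEI-SWNTs than with Water, and DESeq2 called 0.

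PEI-SWNTs against SWNTs called 10 members up and 0 down (3.81% and 2.58% of all genes). In order of size these were WRKY61 (3.48), WRKY50 (3.17), WRKY51 (2.68), WRKY47 (1.90), WRKY6 (1.47), WRKY8 (1.46), WRKY46 (1.42), WRKY58 (1.39), WRKY45 (1.33) and WRKY60 (1.16). WRKY61 and WRKY51 passed the RPKM filter through the PEI-SWNTs samples, and without them 8 of 38 members were called up. At any fold 23 of the 40 members were higher with PEI-SWNTs and 2 were lower (WRKY2 and WRKY69), where 22.3% of all genes were higher and 41.3% passed in either direction. The call of WRKY46 was lost without PEI-SWNTs replicate 2 (adjusted p = 0.058 by edgeR). WRKY18, WRKY22, WRKY28, WRKY33, WRKY48, WRKY53 and WRKY54 did not pass here. For WRKY18 the difference was 0.01 ± 0.33, and for WRKY33 it was -0.33 ± 0.54. The unadjusted p of edgeR was under 0.05 for 2 lower members, and DESeq2 called 0.

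**Figure D4:**
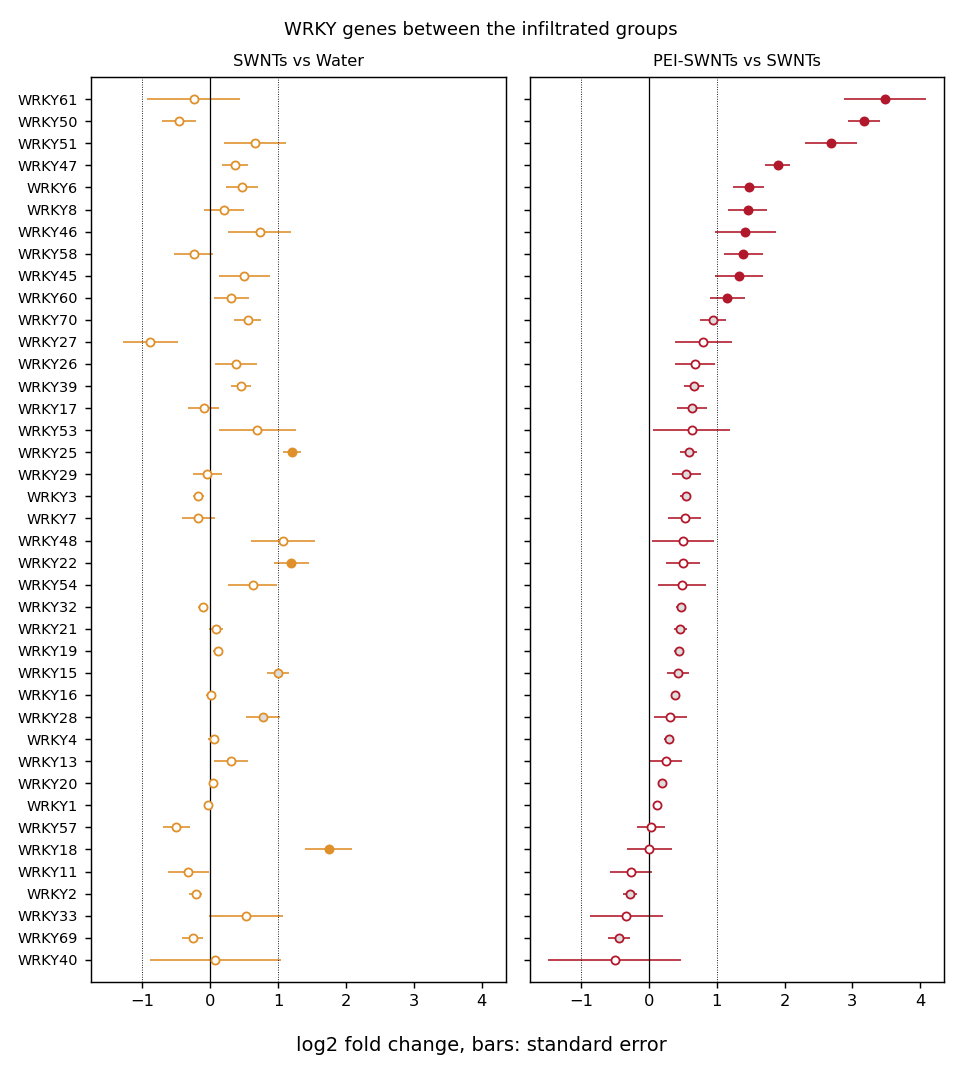
Log2 fold change (bars, standard error) of the 40 tested WRKY genes between SWNTs and Water and between PEI-SWNTs and SWNTs, in the order of the second. Filled points were called, grey points passed the adjusted p but not 2-fold, open points did not pass, and dotted lines mark a 2-fold change. WRKY18, WRKY22 and WRKY25 are filled on the left, and WRKY61, WRKY50 and WRKY51 lead the 10 filled points on the right. WRKY61 and WRKY51 passed the RPKM filter through the PEI-SWNTs samples.

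Of the 20 members below the RPKM filter, 12 had more than 3 counts in all 5 samples of at least 1 group. The rule uses counts that are not scaled to library size, and fold changes given for these members are from the fit over all genes. WRKY41, WRKY55, WRKY62, WRKY71 and WRKY75 met this rule through the PEI-SWNTs samples alone. WRKY30 met it in SWNTs and PEI-SWNTs alone, and WRKY38 in the infiltrated groups alone. The counts of these members are therefore a description with no test. WRKY44 met the rule through the non-infiltrated samples alone. Of the 12, 5 belong to group III. WRKY30 (AT5G24110), which responds to oxidative stress, had 10, 0, 3, 14 and 2 counts in the non-infiltrated samples and 45, 60, 32, 59 and 65 counts with PEI-SWNTs. WRKY41 (AT4G11070) had 0, 0, 1, 1 and 0 counts in non-infiltrated samples, at most 1 with Water and with SWNTs, and 13, 17, 5, 7 and 17 with PEI-SWNTs. It shares 41.7% of its exon bases with AT4G11080 on the opposite strand, which stood at 1.71 ± 0.836 CPM in non-infiltrated leaves, 2.54 ± 0.436 CPM with SWNTs and 2.21 ± 0.484 CPM with PEI-SWNTs (SD, n = 5). WRKY38 and WRKY62 act against basal defence. WRKY38 had 16, 0, 0, 9 and 0 counts in non-infiltrated leaves and 31, 36, 28, 28 and 67 with PEI-SWNTs, and WRKY62 had 4, 5, 0, 4 and 0 against 13, 19, 6, 22 and 19 counts. Since 3 of the 5 non-infiltrated samples of WRKY38 had 0 counts, no fold is given. WRKY55, the neighbour of WRKY54 on chromosome 2, had 3 to 9 counts in non-infiltrated leaves, 1 to 6 with Water, 1 to 4 with SWNTs and 18 to 26 with PEI-SWNTs. WRKY66, the last of the group, had at most 5 counts in any sample.

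WRKY36 of group IIb had 15 to 31 counts in non-infiltrated leaves and 59 to 76 with PEI-SWNTs (log2 2.10 ± 0.23, adjusted p = 1.4e-07). WRKY75, which acts in phosphate acquisition and senescence, had 1, 1, 0, 0 and 6 counts in non-infiltrated leaves and 18, 26, 9, 22 and 21 with PEI-SWNTs, and WRKY71 had 1, 4, 5, 0 and 3 against 16, 17, 15, 19 and 11. WRKY42 (AT4G04450), a regulator of phosphate transport, had 51, 94, 60, 126 and 90 counts in non-infiltrated leaves and 10, 4, 11, 19 and 39 with Water, with no overlap (log2 -2.10 ± 0.40, adjusted p = 7.8e-04). With SWNTs WRKY42 was at -1.06 ± 0.38, adjusted p = 0.041, and with PEI-SWNTs at -0.70 ± 0.37, adjusted p = 0.14, which did not pass. WRKY23, an auxin-responsive gene, fell by less than 2-fold in each infiltrated group (-0.80, -0.68 and -0.64). WRKY44, known as TTG2 and required for trichomes, had 9 to 16 counts in non-infiltrated leaves (0.373 to 0.662 CPM) and 1 to 10 with Water (0.0537 to 0.360 CPM). Its SWNTs samples (0.0655 to 0.506 CPM) and PEI-SWNTs samples (0.141 to 0.482 CPM) overlapped the non-infiltrated ones. A link to the values of the trichome gene GL2 given above was not tested. WRKY65 did not pass. The other 8 members, WRKY9, WRKY14, WRKY31, WRKY35, WRKY43, WRKY59, WRKY66 and WRKY72, had at most 15 counts in any sample and were not detected by the rule above, although the fit over all genes called WRKY14, WRKY31, WRKY35 and WRKY59 up with PEI-SWNTs.

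**Figure D5:**
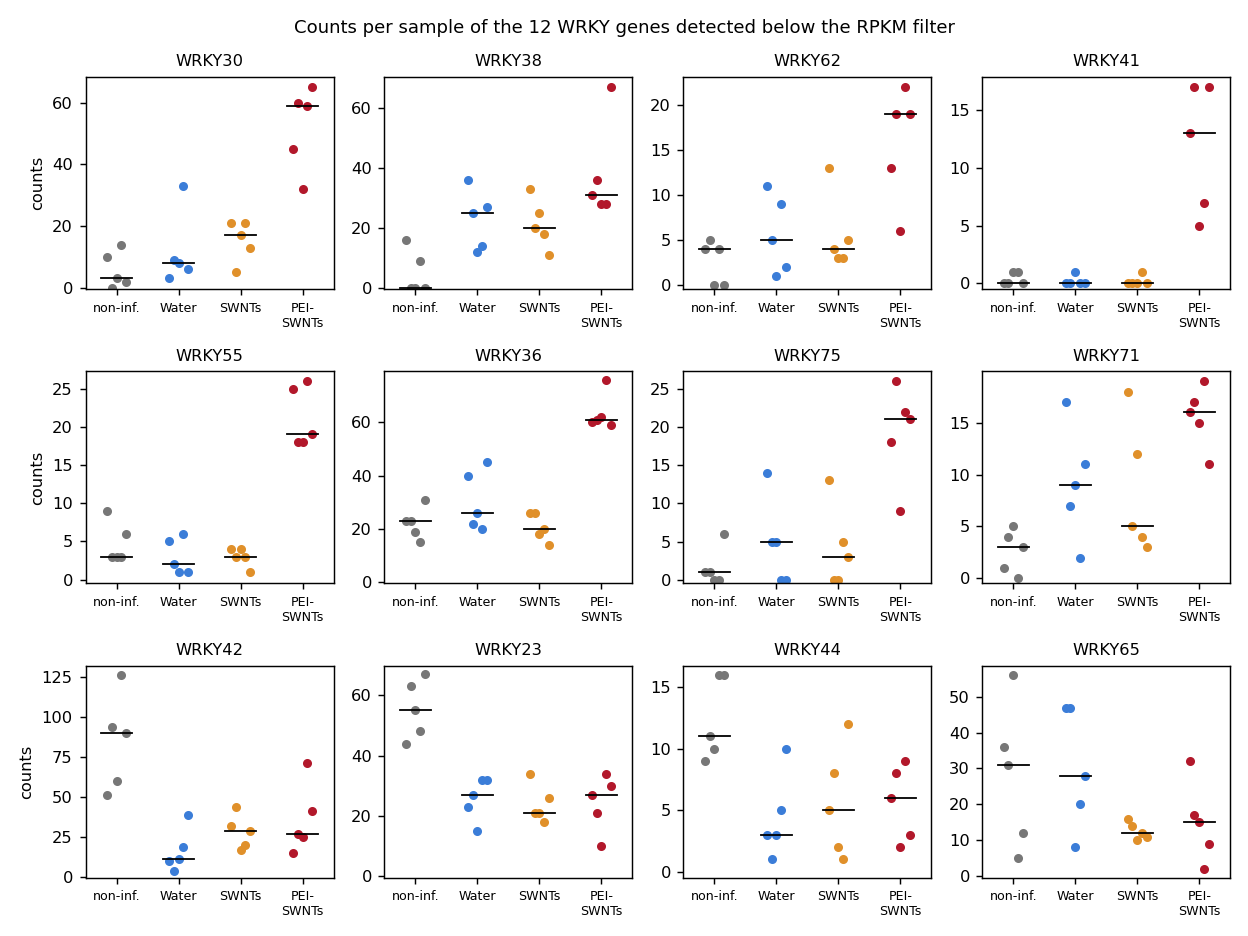
Counts per sample (points, with the median of each group as a line) of the 12 WRKY genes that were detected but lay below the RPKM filter. WRKY41 has 0 or 1 count outside the PEI-SWNTs samples and 5 to 17 within them, while WRKY42 and WRKY23 are highest in non-infiltrated leaves. Counts are not scaled to library size, and the median total was 25701932 in non-infiltrated leaves against 17806729 with PEI-SWNTs. Scaled to CPM, the means in these 2 groups are 3.27 and 2.01 for WRKY42 and 2.12 and 1.36 for WRKY23.

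Across the subgroups, the share of tested members called with PEI-SWNTs against non-infiltrated leaves was 4 of 4 in group III, 3 of 3 in group IIb, 2 of 3 in group IIa, 6 of 8 in group IIc, 4 of 11 in group I, 1 of 5 in group IIe and 0 of 6 in group IId, where 8.47% of all genes were called up. WRKY61 and WRKY51, which passed the RPKM filter through the PEI-SWNTs samples, are among these, and without them the shares were 2 of 2 in group IIb and 5 of 7 in group IIc. Median log2 fold changes ran from 3.28 in group III and 2.89 in group IIb to 0.27 in group IIe. Without WRKY61 the median of group IIb was 2.55. SWNTs called 4, 0, 2, 4, 2, 1 and 0 members up in the same order (4.82% of all genes), and Water 4, 0, 1, 4, 0, 0 and 0 (2.61%). The differences between subgroups were not tested.

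W-boxes were then counted in the members' own promoters. The motifs TTGACC and TTGACT, searched on both strands from 250 bases before to 50 after the annotated gene start, were found at least once in 22 of the 60 members (36.7%) and in 32.4% of 27443 promoters of protein-coding genes. At least 2 matches were found in 12 members and in 7.70% of all promoters. Of the members called up with PEI-SWNTs, 7 of 20 held a match, and 7 of the 20 tested members that were not called did so too. WRKY30 had the most matches and WRKY33, whose product is known to act on its own promoter, had 2, whereas WRKY70, WRKY51, WRKY60 and WRKY46 had none in this window. The 250 bases before the gene start (TAIR10.1) are shown for WRKY30 and WRKY33 with matches in capitals, where GGTCAA and AGTCAA are the motifs read on the other strand, and for WRKY70 as a strongly responding member without a match.
WRKY30 (chr5:8154711-8154960, minus strand): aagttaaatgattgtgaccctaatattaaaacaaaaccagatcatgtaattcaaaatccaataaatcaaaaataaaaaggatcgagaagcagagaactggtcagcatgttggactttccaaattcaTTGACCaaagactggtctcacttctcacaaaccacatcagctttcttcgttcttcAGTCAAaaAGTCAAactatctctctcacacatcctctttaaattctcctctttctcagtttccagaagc
WRKY33 (chr2:16107985-16108234, plus strand): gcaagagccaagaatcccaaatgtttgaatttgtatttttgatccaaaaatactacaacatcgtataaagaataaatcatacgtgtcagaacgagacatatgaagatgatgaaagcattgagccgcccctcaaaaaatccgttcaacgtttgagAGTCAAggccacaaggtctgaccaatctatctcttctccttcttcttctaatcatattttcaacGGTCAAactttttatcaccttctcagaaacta
WRKY70 (chr3:20910624-20910873, minus strand): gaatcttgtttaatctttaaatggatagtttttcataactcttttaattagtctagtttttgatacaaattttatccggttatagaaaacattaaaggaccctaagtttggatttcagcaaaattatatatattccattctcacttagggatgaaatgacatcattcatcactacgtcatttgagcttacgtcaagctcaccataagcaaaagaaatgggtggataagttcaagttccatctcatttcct
In WRKY30 the matches begin 124, 69 and 61 bases before the gene start, and in WRKY33 96 and 32 bases before it. A match describes these letters only.

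Genes known to act around the WRKY factors were read from lists set with the members. The lists were chosen with earlier results of these data known, and the authors had picked PR1 and PAD3 from these data as marker genes. The counts below are therefore a description, and the percentages of all genes beside them are no test. Of 8 MAP kinase cascade genes above WRKY factors, 0 were called up with Water, 1 with SWNTs and 3 with PEI-SWNTs (2.61%, 4.82% and 8.47% of all genes), and 0 were called down. MPK3 was called with both nanotubes (1.12 ± 0.13 and 1.12 ± 0.13), and MKK1 and MKK2 with PEI-SWNTs (1.47 ± 0.12 and 1.12 ± 0.10). Of 5 tested VQ proteins, which bind WRKY factors, 1, 3 and 3 were called up, to be read against the same percentages. SIB1, a partner of WRKY33, had 1.72 ± 0.15, 1.95 ± 0.15 and 3.19 ± 0.16, VQ10 reached 3.81 ± 0.38 and JAV1, a repressor of jasmonate defence, 1.88 ± 0.23 with PEI-SWNTs. Of 9 tested genes known as WRKY targets, 2, 2 and 6 were called up and 0 down, against the same background for the rises. With PEI-SWNTs these were FRK1, a marker of pattern-triggered immunity (7.67 ± 0.40), PR1, a marker of salicylic acid (7.41 ± 0.38), PBS3 and ICS1 of salicylic acid synthesis (4.35 ± 0.30 and 1.83 ± 0.17), the camalexin enzyme PAD3 (4.21 ± 0.68) and NPR1 (1.29 ± 0.08). PR1 was at -0.56 ± 0.62 with Water and -1.06 ± 0.70 with SWNTs, neither of which passed. FRK1 was called in both, at 1.96 ± 0.52 and 3.13 ± 0.47, and PBS3 with SWNTs (1.71 ± 0.31). The targets not called with PEI-SWNTs were CYP71A13, a further camalexin enzyme (1.25 ± 0.60, adjusted p = 0.077), PHO1 (-0.53 ± 0.18, adjusted p = 0.015, a fall below 2-fold) and ACS6 (0.29 ± 0.48, adjusted p = 0.62). ACS6, an ethylene synthesis gene, was called with Water (1.47 ± 0.48), and SIB2, SAG12, PHT1;1 and ACS2 were below the filter.

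Individual samples stood apart within groups across many members. Among the 20 members called with PEI-SWNTs, SWNTs replicate 1 had the highest value of its group in 18 and SWNTs replicate 5 the lowest in 15. Non-infiltrated replicate 3 was highest in 11 and Water replicates 1 and 4 in 11 and 8. Leaving out 1 sample at a time gave 6 to 10 called members with Water, 12 to 14 with SWNTs and 18 to 22 with PEI-SWNTs against non-infiltrated leaves. The lowest number with Water came without Water replicate 1. Leaving out Water replicate 1 took WRKY61 between PEI-SWNTs and Water from 3.23 to 3.85.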

How the data were processed

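Poly-A RNA libraries of 20 leaf samples were sequenced as 150-base read pairs. The authors trimmed reads with Trimmomatic, aligned them with HISAT2 at default settings to TAIR10 and deposited counts per gene from featureCounts 2.0.1; strand setting and treatment of multi-mapping reads are not given in the sources used here. The authors' second table, made with edgeR 3.30.3, holds deposited log2 fold changes and log2 CPM, an F score and p-values of their own comparisons, none of which were used; its gene lengths served for 139 genes. No 100-base window of a member's exons occurred elsewhere in the genome.

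From the deposited counts, with every table column mapped, edgeR 4.0.16 (R 4.3.3) was run with TMM factors, group means over all 20 samples and the quasi-likelihood test of each of 6 pairs, on the 16288 genes whose average RPKM reached 1 (146 genes had no length). Calls needed a Benjamini-Hochberg adjusted p under 0.05 over all tested genes and 2-fold. RPKM used TAIR10.1 exon lengths, which equalled 16064 of 16068 deposited ones. Levels and fold changes are given for members by subgroup; full values were kept for the 4 largest rises and falls of each comparison and for members of known role. On simulated counts for PEI-SWNTs vs non-infiltrated (16288 genes), recovery was judged by an adjusted p under 0.05 alone, with no fold minimum. It was 50 of 70 for genes changed 1.5-fold, 63 of 68 for 2-fold and 59 of 62 for 4-fold. The changed genes were drawn from all tested genes, so these shares do not give the recovery for members with a wide spread, such as WRKY40. The median absolute log2 estimate of the 2-fold genes was 1, so the fold minimum of the calls would drop some of them. The members and lists were chosen with earlier results of these data known. Alternatives were other filters, scaling, DESeq2 1.42.0, a fold-threshold test, fewer samples and a replicate block.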

Additional observations from a re-analysis of the deposited data

Results flagged for a closer look

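In 15 of 160 group-by-member sets of 5 samples, 1 sample lay farther from the others than Dixon's 95% critical value allows, where chance alone gives about 1 in 20. SWNTs replicate 1 accounted for 5 of them, being highest at 15.3 CPM for WRKY6, 98.1 CPM for WRKY11, 108 CPM for WRKY15, 27.2 CPM for WRKY22 and 3.60 CPM for WRKY45. Water replicate 1 was highest at 10.9 CPM for WRKY8 and 3.07 CPM for WRKY45. Water replicate 4 was highest at 144 CPM for WRKY40 and 80.6 CPM for WRKY53. Other Water samples that stood apart were replicate 2 at 15.9 CPM for WRKY32 and replicate 3, lowest, at 1.22 CPM for WRKY50. In non-infiltrated leaves, replicate 5 was highest at 1.32 CPM for WRKY61 and replicate 1 at 45 CPM for WRKY70. With PEI-SWNTs, replicate 5 was lowest at 33.2 CPM for WRKY4 and replicate 4 highest at 4.82 CPM for WRKY69.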

How the results depend on the processing

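Of 76 calls of a member in a comparison, none reversed under another filter, scaling, tool or set of samples. All 76 kept their direction and side of the threshold with filterByExpr, with every gene with at least 1 count, with RLE factors, with library size only and with DESeq2. A test against a fold threshold (glmTreat) ended 40 of them, fitting only the 10 samples compared ended 4, and merging SWNTs replicates 3 and 4, the closest pair, ended 1. With glmTreat the counts of members up against non-infiltrated leaves became 1 (Water), 6 (SWNTs) and 17 (PEI-SWNTs). They became 0 for SWNTs vs Water, 8 for PEI-SWNTs vs Water and 4 for PEI-SWNTs vs SWNTs, and the member down with SWNTs became 0. With only the 10 samples compared, 5 members were up with Water. With filterByExpr and with every gene, 1 member was down with Water and 2 with SWNTs; every gene also gave 32 up with PEI-SWNTs and 17 up for PEI-SWNTs vs SWNTs. Without a fold minimum, members down numbered 4 (Water), 5 (SWNTs), 2 (PEI-SWNTs vs non-infiltrated), 2 (vs Water) and 2 (vs SWNTs), and members up 5 for SWNTs vs Water and 23 for PEI-SWNTs vs SWNTs. The settings change the genes, the samples or the strictness of the rule, and the cause of these differences was not tested. Leaving out 1 sample gave 6 to 10, 12 to 14 and 18 to 22 up against non-infiltrated leaves, 2 to 4 for SWNTs vs Water, 19 to 21 for PEI-SWNTs vs Water and 9 to 11 for PEI-SWNTs vs SWNTs; 13 of the 76 calls were lost in at least 1 such fit, 6 by p and 7 by fold alone.

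The replicate numbers were shared between groups, and the labels do not say whether they pair the samples. The correlation of same-numbered deviations ran from -0.36 to 0.29 and passed 0.1 in 9 of 30 pairs, which cannot settle it. With a replicate block the counts up were 9, 13 and 20 against non-infiltrated leaves, 4 for SWNTs vs Water, 21 for PEI-SWNTs vs Water and 10 for PEI-SWNTs vs SWNTs, with 1 down for SWNTs. Depth limits WRKY genes near the floor of 3 counts.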
